A study of Mus musculus with 12 samples.

Results

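The 8 genes described here encode microtubule- and tubulin-binding proteins of the nervous system, and they were measured in RNA from the brains of 12 mice. Mapt, which encodes tau, was selected on its low FPKM in all 3 libraries of 1 group (MS_O), and Map2, Map4, Map1a, Map1b, Map6, Stmn1 and Stmn2 were added as its family. The members were taken from the deposited table by gene name, which found all 8 of 8 among 55385 genes, and all 8 were among the 21393 genes that were tested because their mean level was at least 0.1 FPKM. FPKM counts fragments per kilobase of a length fixed for each gene, scaled to the fragments of a library. For these 8 genes that length was close to all annotated exons joined (1922 bp for Stmn1, 16449 bp for Map2). Levels set side by side between genes therefore also depend on the annotated length. All mice were wild type males of strain C57/BL6J, bought at an age of 8 weeks, and each group held 3 mice with 1 library apiece from tissue labelled as brain, described as whole brain in the methods of the study. C_W mice received water and no stress, C_O mice received a daily dose of 200 mg/kg krill oil over 5 weeks, MS_W mice received water and chronic unpredictable mild stress (CUMS) for 4 weeks, and MS_O mice received both krill oil and CUMS. Water rather than another oil was the control, so an effect of krill oil and an effect of oil as such cannot be told apart. Libraries carry the group name followed by the number of the mouse (MS_O13, for example).

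Microtubules are hollow polymers of tubulin that carry transport along axons and dendrites, and proteins bound to their surface set how stable they are and how they are spaced. Tau lies mainly on axonal microtubules, MAP2 on those of dendrites, and MAP4 is found in many cell types besides neurons; these 3 bind through related repeats near their C terminus. MAP1A and MAP1B are large relatives of each other, with MAP1B prominent in growing axons and MAP1A in mature neurons. MAP6 protects microtubules against cold, and the stathmins STMN1 and STMN2 bind free tubulin dimers and favour disassembly.

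Stmn1 and Stmn2 are close relatives, and their coding sequences are shown because they bear on whether a read could be shared by both genes. The 90-base coding windows with the highest identity between Stmn1 (chr4:134472832-134472921) and Stmn2 (chr3:8554820-8554909) are given with identical bases in capitals (GENCODE M21, build GRCm38, plus strand).
Stmn1: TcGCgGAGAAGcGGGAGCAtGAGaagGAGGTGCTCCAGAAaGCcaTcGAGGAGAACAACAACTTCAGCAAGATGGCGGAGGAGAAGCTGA
Stmn2: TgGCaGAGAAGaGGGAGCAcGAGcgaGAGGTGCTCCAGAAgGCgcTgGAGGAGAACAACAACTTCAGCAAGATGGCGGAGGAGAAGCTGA
These windows were identical at 79 of 90 bases (87.8%), and the longest identical run in the coding sequences was 43 bases. How the counting treated reads that match several genes is not given in the sources used here.

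Library totals ranged from 50912906 to 75678721 estimated counts. These derive from coverage and in each group exceed the valid reads listed in the paper, so they are not read depth. Defining markers of neurons, oligodendrocytes, astrocytes, microglia and endothelium were present, 5 of 5 for each. The C_O72 and MS_W95 libraries differed from the remaining 10: the summed FPKM of 5 hindbrain markers was 65.2 and 23.6 in them and at most 0.0612 elsewhere, that of 5 cortex markers was 35.1 and 47.9 against 130 to 375, and that of 5 oligodendrocyte markers was 902 and 521 against 197 to 370. Under the one label of brain, the 12 libraries thus did not share the same region markers, and whether the dissection differed was not tested. C_O72 and MS_W95 both lay above, or both below, all of the other 10 libraries for 6003 tested genes (28.1%). Results are therefore also given for 10 libraries without C_O72 and MS_W95.

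Over the 12 libraries Stmn1 had the highest mean level (265 FPKM), followed by Map1a (96.2), Stmn2 (69.8), Mapt (52.2), Map1b (41.3), Map4 (22.7), Map2 (17.3) and Map6 (11.3). Map6, Map1b, Map4 and Map1a varied least, with a ratio of the highest to the lowest library of 1.46, 1.54, 1.64 and 1.73. This ratio was 2.39 for Stmn2, 2.40 for Stmn1, 3.36 for Map2 and 9.34 for Mapt.

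**Figure D1:**
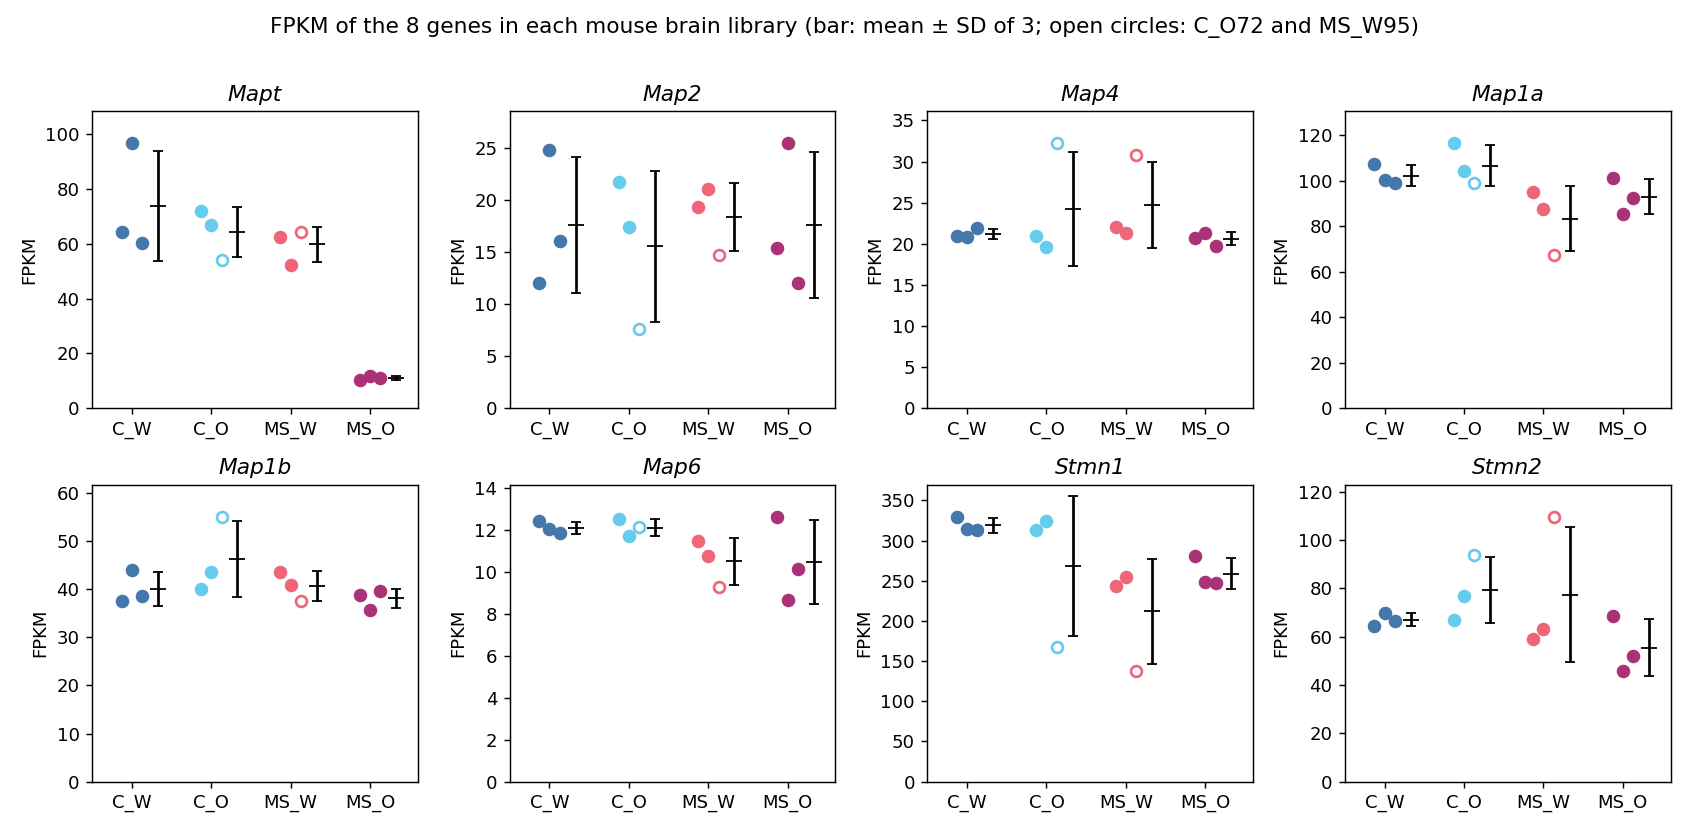
FPKM of the 8 genes (vertical axes from 0) in each library of the 4 groups (horizontal axes), with the mean ± SD of 3 mice at the right of each group; open circles are C_O72 and MS_W95. The MS_O libraries lie between 10.4 and 11.8 FPKM for Mapt, below the other 9, while the groups of the other genes lie close together or overlap, and the open circles stand apart for Map4, Stmn1 and Stmn2.

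Mapt (ENSMUSG00000018411, chr11:104231390-104332090, plus strand) was at 64.2, 96.7 and 60.3 FPKM in the C_W mice. It was at 71.9, 66.9 and 54.0 FPKM in the C_O mice and at 62.5, 52.4 and 64.4 FPKM in the MS_W mice. In the MS_O mice Mapt was at 10.4, 11.8 and 10.9 FPKM. Every MS_O library was thus below every other library, and the lowest of the other 9 was 4.45 times the highest MS_O library. The order of the group means was C_W (73.8 ± 20.0, SD, n = 3), C_O (64.3 ± 9.24), MS_W (59.8 ± 6.41) and MS_O (11.03 ± 0.720), and the first 3 overlapped. The estimated counts behind the MS_O values were 6431, 5686 and 5337, against 22963 to 57509 in the other libraries. As these derive from coverage, no counting error was computed from them. The mean FPKM in MS_O was 0.172 of that in C_O and 0.184 of that in MS_W. Since Mapt was picked for these values, they are a description and no test of them is given.

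The pick of Mapt set MS_O against C_W, C_O and MS_W, and did not use differences between those groups. Neither MS_W nor C_O differed from C_W past the threshold. Mapt in MS_W had a log2 fold change of -0.27 against C_W on the log2(FPKM + 1) scale (SE 0.18, 95% interval -0.67 to 0.12, limma, adjusted p = 0.590), which was -0.063 without C_W64. Krill oil without stress gave -0.17 for C_O against C_W (SE 0.18, 95% interval -0.57 to 0.22, limma, adjusted p = 0.908). Neither result shows that the levels were equal, as the intervals also hold lower levels. The sign of C_O against C_W rested on C_W64, the highest library, without which it was 0.036. In RNA from brain tissue, fewer cells of a type and less RNA per cell cannot be told apart. Of the 8 lists of cell type and region markers, each with 5 of 5 genes found, none had its MS_O libraries below or above the other 9. The summed neuron markers were 920 to 1107 FPKM in MS_O and 807 to 1169 in the other libraries. Their part in the Mapt values was not tested.

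All 3 MS_O libraries were below the other 9 for 92 of the 21393 tested genes (0.430%), and for 25 of the 4462 genes with a mean of at least 10 FPKM. Among those 25 genes Mapt alone had a gap of at least 2-fold between the highest MS_O library and the lowest of the other 9. The gap was 1.29-fold for Smarca2, the next in order, a chromatin remodelling ATPase. Another of the 25 was Tppp3, a microtubule-bundling protein gene described below, with a gap of 1.13-fold. The direction was that used to pick Mapt, and these counts describe how many other genes share it.

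The genes nearest to Mapt on chromosome 11 did not have this pattern. Kansl1, a subunit gene of a histone acetyltransferase complex, lies 1139 bp beyond the end of Mapt on the opposite strand and was at 12.04, 12.7 and 14.3 FPKM in MS_O and at 10.02 to 14.3 in the other libraries. Crhr1, the gene of a receptor for corticotropin-releasing hormone, lies 55867 bp away on the other side and was at 9.15, 20.2 and 21.8 FPKM in MS_O and at 7.67 to 22.1 elsewhere. For none of the 5 nearest tested genes on each side did the MS_O libraries all lie outside the range of the other 9. A further 3 genes in the table overlap Mapt on the minus strand (Gm11659, Gm22743 and Gm47310), and none exceeded 0.124 FPKM in any library.

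Likeness to Mapt was measured over the 12 libraries as the root mean square difference in log2(FPKM + 1), each gene centred on its own mean, among 13620 other genes with a mean of at least 1 FPKM. The smallest differences were 0.618 for Paqr7, a membrane progestin receptor, 0.755 for Smarca2, 0.775 for Gopc, a Golgi protein of vesicle traffic, 0.776 for Ly6e, a surface protein, and 0.790 for Gm21860. A gene with no variation would be at 1.08, and 4000 genes were nearer to Mapt than that. Paqr7 was at 6.57, 4.78 and 4.98 FPKM in MS_O and at 7.67 to 21.7 in the other libraries, so that its groups were close to touching where those of Mapt were far apart. Paqr7 also came first with a pseudocount of 0.1 and in the 10 libraries.

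**Figure D2:**
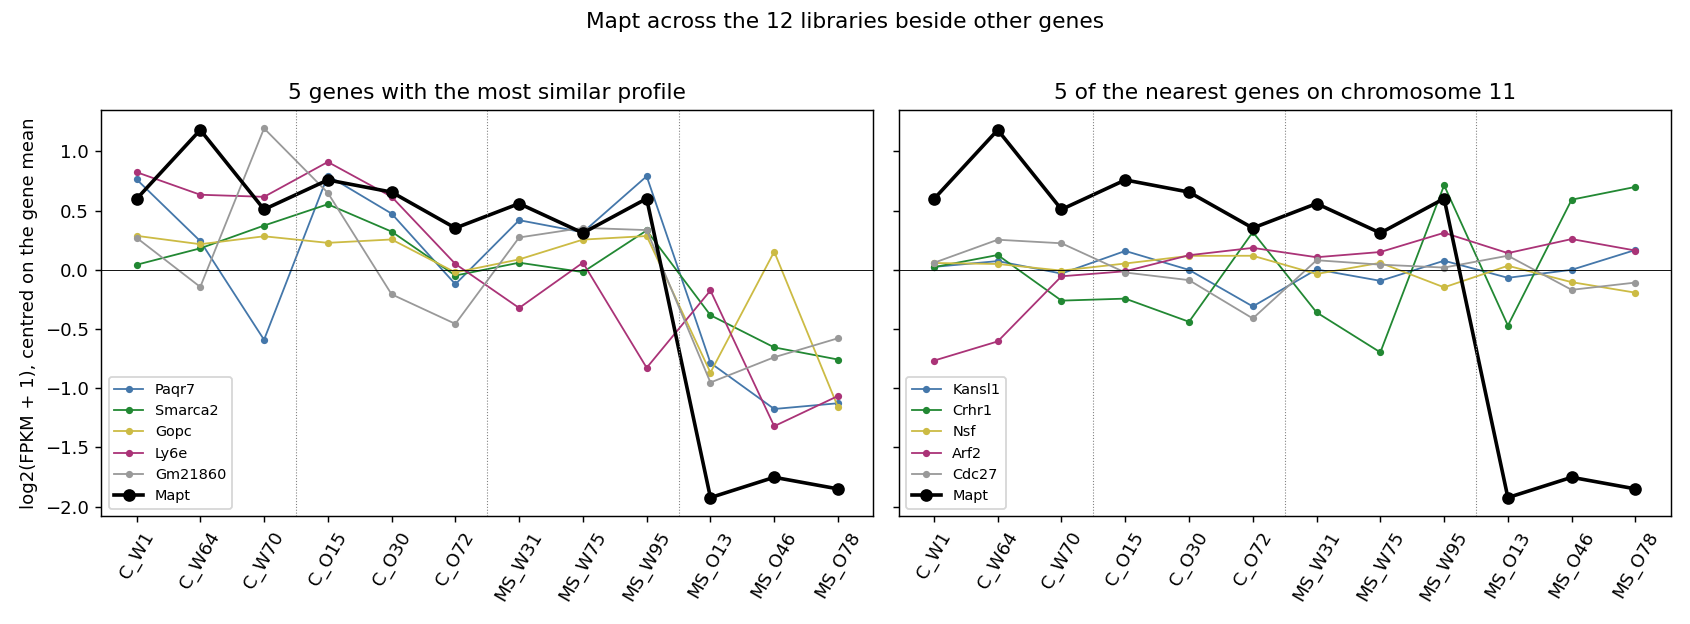
log2(FPKM + 1) centred on the mean of each gene (vertical axis) in the 12 libraries (horizontal axis, dotted lines between groups), with Mapt in black beside the 5 genes nearest to its profile (left) and beside those 5 of its neighbours on chromosome 11 with the highest mean level among the 10 nearest tested genes (right). The 3 MS_O points of Mapt lie below all other points drawn, and the neighbours show no common step there.

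Map2 and Map4, the repeat relatives of Mapt, did not have its pattern. Map2 (ENSMUSG00000015222, chr1:66175273-66442583) was at 12.01, 24.8 and 16.1 FPKM in C_W, at 21.7, 17.4 and 7.58 in C_O, at 19.4, 21.1 and 14.7 in MS_W and at 15.4, 25.5 and 12.02 in MS_O. The MS_O mice alone spanned 12.02 to 25.5 FPKM, and all 4 groups overlapped. Map2 had the widest intervals of the 8 genes, and for MS_O against C_O the log2 fold change was 0.22 (SE 0.39, 95% interval -0.64 to 1.08, limma, adjusted p = 0.883), and -0.20 without C_O72.

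Map4 (ENSMUSG00000032479, chr9:109931460-110083955) was at 21.0, 20.8 and 21.9 FPKM in C_W, at 21.0, 19.6 and 32.2 in C_O, at 22.0, 21.4 and 30.8 in MS_W and at 20.7, 21.4 and 19.8 in MS_O. The pair of high values came from C_O72 and MS_W95, and the other 10 libraries lay between 19.6 and 22.0 FPKM. In those 10 libraries the log2 fold change of Map4 was 0.03 for MS_W against C_W (95% interval -0.12 to 0.18) and 0.02 for MS_O against C_O (95% interval -0.13 to 0.17), which makes it the gene with the narrowest intervals of the family. Oligodendrocyte and hindbrain markers were high in the same pair of libraries, and their part in the Map4 values was not tested.

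Map1a, Map1b and Map6 varied less between libraries than Mapt, Map2 and the stathmins. Map1a (ENSMUSG00000027254, chr2:121289600-121310832) was at 107, 100 and 98.8 FPKM in C_W, at 116, 104 and 98.8 in C_O, at 95.0, 87.4 and 67.3 in MS_W and at 101, 85.4 and 92.5 in MS_O. Every MS_W library was below every C_W library, and the log2 fold change was -0.31 (SE 0.13, 95% interval -0.60 to -0.01, limma, adjusted p = 0.468). Without C_O72 and MS_W95 it was -0.16 (limma, adjusted p = 0.456) for MS_W against C_W and -0.25 (limma, adjusted p = 0.343) for MS_O against C_O.

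Map1b (ENSMUSG00000052727, chr13:99421446-99516540, minus strand) was at 37.6, 44.1 and 38.7 FPKM in C_W, at 40.2, 43.6 and 55.1 in C_O, at 43.6, 40.9 and 37.6 in MS_W and at 38.8, 35.8 and 39.7 in MS_O. Every MS_O library was below every C_O library, by a margin under 1 FPKM between 39.7 and 40.2, and the log2 fold change was -0.26 (SE 0.13, 95% interval -0.54 to 0.01, limma, adjusted p = 0.579), which was -0.13 without C_O72. Map6 (ENSMUSG00000055407, chr7:99267447-99337137) was at 12.4, 12.04 and 11.8 FPKM in C_W, at 12.5, 11.7 and 12.1 in C_O, at 11.5, 10.7 and 9.28 in MS_W and at 12.6, 8.66 and 10.1 in MS_O. Its MS_W libraries were all below its C_W libraries, with a log2 fold change of -0.19 (SE 0.13, 95% interval -0.47 to 0.09, limma, adjusted p = 0.593) that was -0.11 without MS_W95, while MS_O13 was the highest of all 12.

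The FPKM ratio of Map1a to Map1b within a library depends on the gene lengths used but not on library size. This ratio was 2.86, 2.28 and 2.56 in C_W and 2.18, 2.14 and 1.79 in MS_W. It was 2.90, 2.39 and 1.79 in C_O and 2.60, 2.39 and 2.33 in MS_O. On the log2 scale the difference of MS_W from C_W was -0.33, a mean of 1.02 against 1.35 (exact two-sided permutation test, p = 0.1, adjusted p = 0.267). That p is the smallest that 3 mice against 3 can give. The adjustment was over 8 tests, those of this ratio and of Stmn1 to Stmn2 in each comparison. MS_O against MS_W was 0.26 with the same p and adjusted p in that test. C_O72 and MS_W95 had the lowest ratios of all libraries.

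For the stathmins, C_O72 and MS_W95 lay outside the other 10 libraries in both genes. Stmn1 (ENSMUSG00000028832, chr4:134468320-134473843) was at 330, 314 and 313 FPKM in C_W, at 314, 324 and 168 in C_O, at 244, 255 and 137 in MS_W and at 281, 248 and 248 in MS_O. Every MS_W library was below every C_W library, with a log2 fold change of -0.64 (SE 0.28, 95% interval -1.25 to -0.03, limma, adjusted p = 0.463). For MS_O against C_O the log2 fold change was 0.01 (SE 0.28, limma, adjusted p = 0.998), with C_O72 below all 3 MS_O mice.

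Without C_O72 and MS_W95, Stmn1 was lower in the CUMS mice, both with and without krill oil. It lay between 244 and 281 FPKM in the 5 CUMS libraries and between 313 and 330 in the 5 libraries without CUMS, with no overlap, a pattern found in 277 tested genes (1.29%) in this direction. The log2 fold change was -0.35 (SE 0.09, 95% interval -0.55 to -0.16, limma, adjusted p = 0.109) for MS_W against C_W and -0.30 (SE 0.09, 95% interval -0.50 to -0.11, limma, adjusted p = 0.335) for MS_O against C_O. C_O against C_W was -0.00018, with a 95% interval of -0.19 to 0.19. The summed neuron markers were at 920 to 1107 FPKM in the 5 CUMS libraries and 1031 to 1169 in the others, with overlap. The cortex markers were at 130 to 267 against 264 to 375, with a narrow overlap. All 5 of 5 neuron markers and all 5 of 5 cortex markers were in the table, and their part in the Stmn1 difference was not tested. The astrocyte markers (5 of 5 found) reached higher in the CUMS libraries, at 105 to 166 FPKM against 97.7 to 119, with overlap. So did the neuroblast markers, at 17.1 to 65.2 against 9.10 to 24.1. Ranges also overlapped for oligodendrocyte (235 to 334 against 197 to 370), microglia (75.9 to 94.5 against 60.8 to 93.5) and endothelium markers (34.8 to 51.5 against 33.9 to 42.2).

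Stmn2 (ENSMUSG00000027500, chr3:8509360-8561606) was at 64.6, 69.9 and 66.6 FPKM in C_W, at 67.0, 77.0 and 94.1 in C_O, at 59.3, 63.2 and 110 in MS_W and at 68.6, 45.96 and 51.9 in MS_O. The highest libraries were MS_W95 and C_O72, the same libraries that were lowest for Stmn1. For MS_O against C_O the log2 fold change was -0.51 (SE 0.23, limma, adjusted p = 0.562), and -0.39 (SE 0.15, limma, adjusted p = 0.345) in the 10 libraries. MS_O13 lay within the C_O range in that comparison, and MS_O46 and MS_O78 lay below it.

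In FPKM, Stmn1 was 4.50 to 5.10 times Stmn2 in C_W, 4.03, 4.11 and 1.25 times in MS_W, 4.68, 4.21 and 1.78 times in C_O and 4.09, 5.40 and 4.77 times in MS_O. The low ratios were those of MS_W95 (1.25) and C_O72 (1.78). The log2 ratio in MS_W differed from that in C_W by -0.79, a mean of 1.46 against 2.25 (exact two-sided permutation test, p = 0.1, adjusted p = 0.267 over the same 8 tests), and by -0.23 without MS_W95. The size of these ratios depends on the gene lengths behind FPKM. In estimated counts, which are not divided by length, Stmn1 was 1.54 to 1.75 times Stmn2 in C_W. There it was 0.612 times Stmn2 in C_O72 and 0.429 times in MS_W95.

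**Figure D3:**
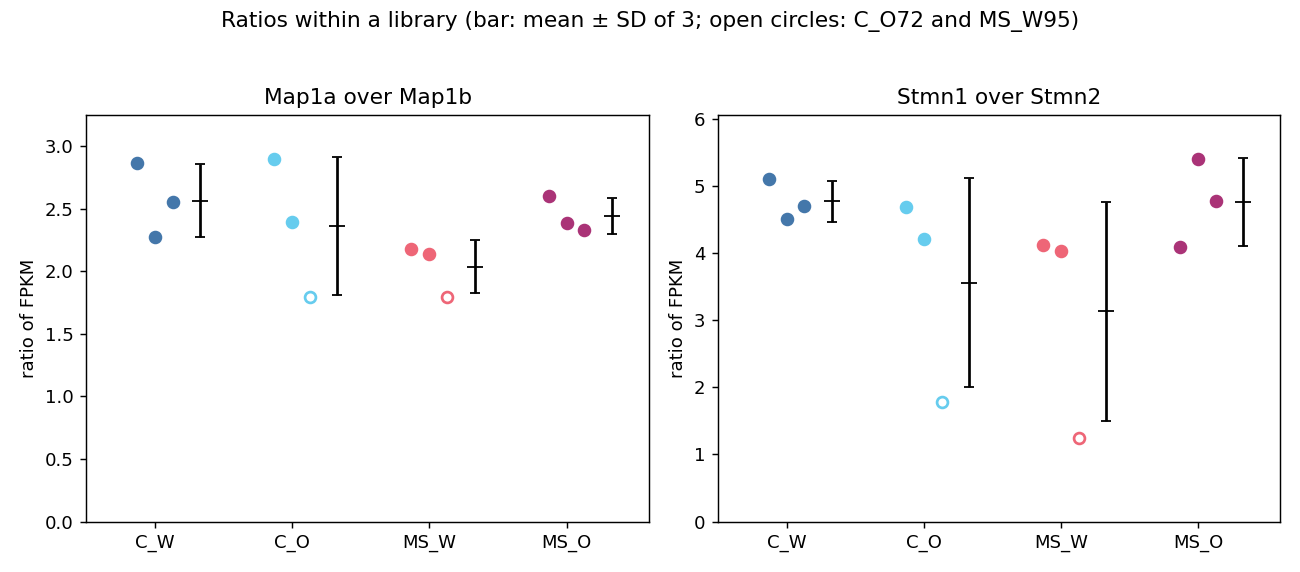
Ratio of the FPKM of Map1a to Map1b (left) and of Stmn1 to Stmn2 (right) in each library of the 4 groups, with the mean ± SD of 3 mice; vertical axes start at 0 and open circles are C_O72 and MS_W95. The open circles have the lowest ratios in both panels, at 1.79 each on the left and at 1.78 and 1.25 on the right.

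Counted over the family, CUMS without krill oil (MS_W against C_W) left 0 of 8 genes past an adjusted p of 0.05 in limma, where 1 of all tested genes (0.00467%) passed, and edgeR and DESeq2 also gave 0. At an unadjusted p under 0.05, Map1a and Stmn1 were lower (2 of 8, against 3.79% of all tested genes), and 3 of 8 genes were lower without overlap (against 8.22%). In the 10 libraries, with 2 libraries left in MS_W, 4 of 8 were lower without overlap (against 13.7%), with Stmn2 joining Map1a, Map6 and Stmn1. At an unadjusted p under 0.05 only Stmn1 was lower there (1 of 8), while Map1a had an unadjusted p of 0.119 in limma. The share of all tested genes for that count is not given here. Over all mice of both groups, MS_W95 included, the summed neuron markers were 807 to 929 FPKM in MS_W and 1099 to 1169 in C_W. The cortex markers were at 47.9 to 136 against 316 to 369. Both were without overlap and with 5 of 5 genes found, and their part in these counts was not tested. No member met the DEG criteria of the study, an unadjusted p under 0.05 with a log2 ratio of mean FPKM beyond 1 in either direction (0 of 8, against 4.59%). The p used here was that of limma, while the study took its p from Ballgown, so its own lists can differ.

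For CUMS under krill oil (MS_O against C_O), Mapt was left out of the counts. Of the other 7 genes, 0 passed the adjusted threshold in limma, edgeR or DESeq2. The 1 tested gene that passed in limma (0.00467%) was Mapt, picked for these values, so it is no background for this count. Stmn2 was lower at an unadjusted p under 0.05 (1 of 7, against 2.18%), Map1b was lower without overlap (1 of 7, against 3.29%), and 0 of 7 met the DEG criteria (against 3.57%). In the 10 libraries, with 2 libraries left in C_O, 3 of 7 genes, Map1a, Stmn1 and Stmn2, were lower at an unadjusted p under 0.05 (against 3.99%). Without overlap, 3 of 7 were lower there, Map1a, Map1b and Stmn1. The share of all tested genes for that count is not given here.

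Krill oil without stress (C_O against C_W) gave 0 of 8 genes past the adjusted threshold in limma, edgeR or DESeq2, 0 of 8 at an unadjusted p under 0.05 in limma and 0 of 8 without overlap. Over all tested genes 0 passed after adjustment (0%) and 760 (3.55%) had an unadjusted p under 0.05, while 9.42% did not overlap and 1.76% met the DEG criteria, which 0 of 8 members did. The log2 fold changes of the 8 genes ran from -0.31 for Stmn1 to 0.23 for Stmn2, which were -0.00018 and 0.098 without C_O72 and MS_W95. Krill oil under stress (MS_O against MS_W) gave 0 of 7 other genes after adjustment in limma, edgeR or DESeq2. The 1 tested gene that passed in limma (0.00467%) was again Mapt and is no background for this count. Of the 7 other genes, 0 had an unadjusted p under 0.05 (against 6.09%), 0 met the DEG criteria (against 2.81%) and 0 were without overlap (against 12.3%). In that comparison the log2 fold changes ran from -0.44 for Stmn2 to 0.34 for Stmn1, which were -0.16 and 0.052 without C_O72 and MS_W95.

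The interaction, which asks whether the CUMS difference was the same with and without krill oil, passed for 0 of the 7 other genes in limma, edgeR and DESeq2, with a smallest adjusted p of 0.665 in limma for Stmn2. Over all tested genes 0 passed (0%) and 1546 (7.23%) had an unadjusted p under 0.05, none of them among these 7 genes. For Mapt the fitted interaction was -2.16 on the log2(FPKM + 1) scale, given as a description only.

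**Figure D4:**
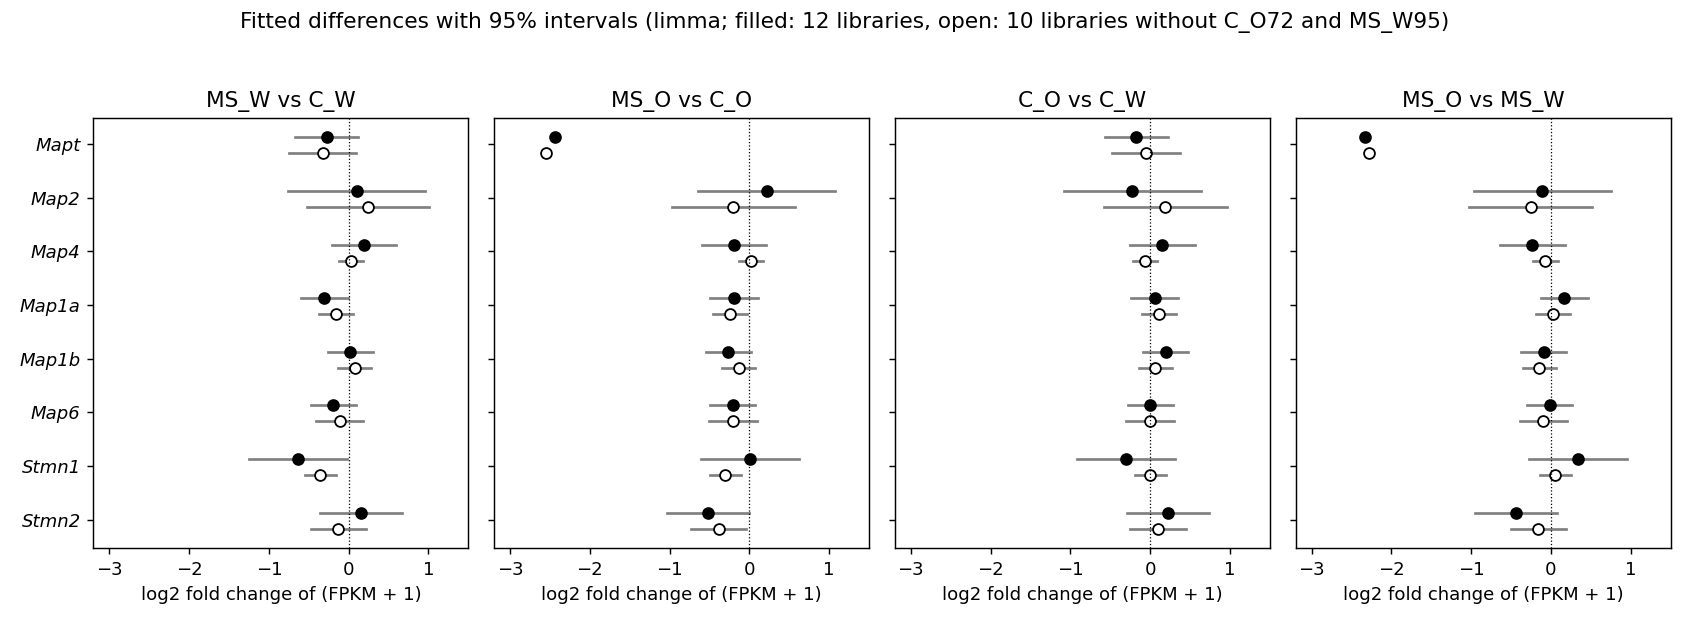
Differences between groups for the 8 genes in 4 comparisons (horizontal axes, log2 fold change of FPKM + 1), with 95% intervals from the limma fit of 12 libraries (filled) and of 10 libraries without C_O72 and MS_W95 (open). Mapt in the panels with MS_O is drawn without an interval, since it was picked for those values, and most intervals of the other genes include 0.

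Other genes of the microtubule system were taken as 6 lists with 99 genes, all of them tested, and 0 passed the adjusted threshold in limma or edgeR in any of the 4 comparisons or the interaction. DESeq2 called Fign and Klc2 in MS_W against C_W, Katnal1 and Kif1b in MS_O against C_O, Fign and Gsk3b in C_O against C_W, and Fign in the interaction, that is 2, 2, 2 and 1 of 99 genes. Over all tested genes DESeq2 called 1.82%, 0.804%, 0.252% and 0.706% in these comparisons. Fign was barely expressed, at 0.0923 FPKM in C_W70, its lowest library, and 0.357 in C_O72, its highest, close to the filter of 0.1 FPKM. Over all tested genes, an unadjusted p under 0.05 was met by 6.71% higher and 3.79% lower in MS_W against C_W, and by 6.69% higher and 2.18% lower in MS_O against C_O. Among 26 other microtubule-associated proteins, 3 were lower and 0 higher at an unadjusted p under 0.05 in MS_W against C_W, with a median log2 fold change of -0.08 against 0.06 over all tested genes. In MS_O against C_O, 2 were higher and 3 lower, with a median of 0.05 against 0.03, which was -0.005 against 0.05 in the 10 libraries. Tppp3, which bundles microtubules, was lowest there (-1.60, SE 0.66, limma, adjusted p = 0.542). It was at 10.6, 9.61 and 7.76 FPKM in MS_O and at 18.9, 13.7 and 100.6 in C_O, with the high value in C_O72. In C_W it was at 18.4, 15.8 and 11.9, and in MS_W at 13.1, 18.9 and 50.5, the last in MS_W95. Every MS_O library was thus below every other library for Tppp3 too, by a small margin. Dcx, the doublecortin gene of migrating neuroblasts, was highest (1.58, SE 0.51, limma, adjusted p = 0.479), at 9.89 and 8.70 FPKM in MS_O46 and MS_O78 and 3.47 in MS_O13. It was at 1.85, 2.74 and 0.643 FPKM in C_O, with the low value in C_O72. In C_W it was at 2.34 to 4.77 and in MS_W at 0.779 to 5.32, so that MS_O13 lay within the range of both. The summed neuroblast markers, which include Dcx, were 65.2 and 63.2 FPKM in MS_O46 and MS_O78 and 17.1 in MS_O13.

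Of 14 tubulins, the subunits of the polymer itself, 0 passed an unadjusted p under 0.05 in MS_W against C_W, and 3 were higher and 1 lower in MS_O against C_O. Tuba8 was highest in that comparison (1.09, SE 0.45, limma, adjusted p = 0.543) and Tuba4a lowest (-0.79, SE 0.28, limma, adjusted p = 0.479). Tuba4a was at 147 FPKM in MS_O13 and at 62.6 and 60.0 in MS_O46 and MS_O78, so the group divided in the same way as for Dcx.

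Of 27 kinases and phosphatases that act on tau, 1 was lower and 0 higher at an unadjusted p under 0.05 in MS_W against C_W (median -0.14). In MS_O against C_O, 2 were higher and 2 lower (median 0.07). These values changed in the 10 libraries. There 3 were lower and 1 higher in MS_W against C_W (median -0.0055). For MS_O against C_O, 5 were lower (against 3.99% of all tested genes) and 0 higher (median -0.044). Gsk3b, a principal tau kinase, was lowest in MS_O against C_O (-1.21, SE 0.41, limma, adjusted p = 0.479). It was at 17.8, 9.32 and 8.81 FPKM in C_O and at 2.96, 2.93 and 8.79 in MS_O, and the C_W mice, at 2.92, 3.06 and 3.21, were as low as 2 of the MS_O mice. Camk2a was lowest in MS_W against C_W (-1.89, SE 1.32, limma, adjusted p = 0.607), with 13.6 FPKM in MS_W95 against 203 and 201 in the other MS_W mice.

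Among 15 tubulin-modifying and severing enzymes 1 was higher and 0 lower at an unadjusted p under 0.05 in MS_W against C_W, and 2 were higher and 1 lower in MS_O against C_O. Among 12 motor subunits these counts were 0 higher and 1 lower, then 2 higher and 2 lower. In the 10 libraries the enzymes gave 2 higher and 0 lower, then 2 higher and 1 lower. The motors gave 0 higher and 1 lower, then 2 higher and 4 lower. Kif1b, a kinesin of vesicle transport, was lowest of the motors in MS_O against C_O (-0.62, SE 0.15, limma, adjusted p = 0.479), at 21.8, 17.6 and 17.3 FPKM in MS_O and 25.4, 35.2 and 28.5 in C_O. Katnal1 was lowest of the enzymes in that comparison (-0.25, SE 0.09, limma, adjusted p = 0.479). Its MS_O libraries, at 6.91, 6.74 and 7.03 FPKM, were all below the other libraries, at 7.11 to 9.14.

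The 5 neurofilament genes, which encode the other main fibre of axons, had the median farthest from 0 of the 6 lists in MS_O against C_O, -1.36 against 0.03 over all tested genes, with 3 of 5 lower at an unadjusted p under 0.05. The median was -0.30 in the 10 libraries, and that of the interaction went from -1.26 to -0.06. Prph, lowest in MS_O against C_O, was at 24.7 FPKM in C_O72, at 7.08 in MS_W95 and at most 0.611 in any other library, in step with the hindbrain markers; their part in these medians was not tested.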

How the data were processed

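Paired-end RNA-seq of 12 mouse brains was read from gene tables. The authors deposited FPKM and estimated counts per gene, made from mm10 alignments (HISAT2 2.0.4, StringTie 1.3.4d and cutadapt 1.9 in the submitters' processing notes); the deposited estimated counts derive from coverage, were rounded for edgeR and DESeq2, and total 50912906 to 75678721 per library. Gene FPKM follows 1 fixed length per gene. The kit marks strand by dUTP, but the strand setting of the counting is not given in the sources used here. Each mouse gave 1 library, so p-values measure the spread between these mice with no separate technical error. The number of mice limits the precision.

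The members and gene lists were chosen with earlier results of these data known. limma 3.58.1 (R 4.3.3) was fitted on log2(FPKM + 1) with a mean-variance trend to all 4 groups over 21393 genes with a mean of at least 0.1 FPKM, with Benjamini-Hochberg adjustment over all of them and a threshold of 0.05. The DEG criteria of the study were applied as a second rule, with the p of each fit in place of that from Ballgown. Named outside the family were, per list, the highest and lowest gene in MS_W against C_W or MS_O against C_O (some of them only are described), and the 5 genes nearest to Mapt in profile. Alternatives were a pseudocount of 0.1, other filters (none, or a mean of 1 FPKM), quantile normalization, median centring, robust variance, fits of only the groups compared, edgeR 4.0.16, DESeq2 1.42.0, 10 libraries, and leaving out each library; for the ratios the last 2 were chosen after seeing the data. Scripts were tested on simulated data. Sequences were read from GENCODE M21 transcripts on GRCm38, with Python 3.11.15. Sequence of the other members is not reported here.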

Additional observations from a re-analysis of the deposited data

How the results depend on the processing

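With Mapt left out wherever MS_O enters the comparison, the counts of members past the adjusted threshold and by the DEG criteria were 0 under every alternative run, and the smallest adjusted p among the members so counted ranged from 0.109 to 0.85 for MS_W against C_W, 0.216 to 1 for MS_O against C_O, 0.605 to 1 for C_O against C_W, 0.509 to 1 for MS_O against MS_W and 0.491 to 1 for the interaction. Over all tested genes the adjusted calls for MS_W against C_W went from 1 to 389 with DESeq2, 246 in 10 libraries and 121 with only the groups compared, and those for MS_O against C_O from 1 to 172, 3 and 2. Leaving out 1 library gave at most 58 calls for MS_W against C_W, without MS_W95. For MS_O against C_O it gave at most 112, without MS_O13.

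None of these members passed a test, so a change of sign among them is a change within their error, and its cause was not tested. For MS_W against C_W, Map2 went to -0.028 in edgeR and -0.032 in DESeq2, Map1b to -0.0046 with quantile normalization, -0.066 with median centring, -0.070 in edgeR and -0.075 in DESeq2, and Stmn2 to -0.13 in 10 libraries. For MS_O against C_O, 10 libraries gave -0.20 for Map2, 0.022 for Map4 and -0.30 for Stmn1, and Stmn1 was -0.076 with median centring, -0.12 in edgeR and -0.13 in DESeq2. For C_O against C_W, 10 libraries gave 0.19 for Map2 and -0.062 for Map4, and quantile normalization -0.018 for Map1a and -0.0011 for Map6. For MS_O against MS_W, Map6 was 0.0095 with quantile normalization, 0.0075 with median centring, 0.033 in edgeR and 0.032 in DESeq2. The log2 ratio of Map1a to Map1b in 10 libraries went to -0.11 for MS_O against C_O and to 0.044 for C_O against C_W.

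Leaving out 1 library at a time gave, for MS_W against C_W, -0.13 to 0.36 for Map2 (below 0 without C_W1 or MS_W75), -0.029 to 0.090 for Map1b (C_W1, C_W70 or MS_W31) and -0.13 to 0.31 for Stmn2 (MS_W95). For MS_O against C_O it gave -0.20 to 0.50 for Map2 (reversed without C_O72 or MS_O46), -0.32 to 0.022 for Map4 (C_O72) and -0.30 to 0.17 for Stmn1 (C_O72 or MS_O13). For C_O against C_W it gave -0.30 to 0.036 for Mapt (C_W64), -0.51 to 0.19 for Map2 (C_W64 or C_O72), -0.062 to 0.28 for Map4 (C_O72), -0.0086 to 0.11 for Map1a (C_O15) and -0.020 to 0.025 for Map6 (C_W64, C_W70 or C_O15). For MS_O against MS_W it gave -0.40 to 0.12 for Map2 (MS_O78) and -0.15 to 0.10 for Map6 (MS_W31, MS_W75, MS_O46 or MS_O78). The Map1a to Map1b ratio ran from -0.11 to 0.24 for MS_O against C_O and from -0.30 to 0.044 for C_O against C_W, both reversed without C_O72. Of the 5 genes nearest to Mapt, 4 were shared with a pseudocount of 0.1 and 3 in 10 libraries. No paired analysis was possible because the mouse numbers are not shared between groups. With 3 mice per group, an exact permutation test cannot give a p below 0.1.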
